A study of Homo sapiens with 2 samples.

Results

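The genes described here are HGF, its receptor MET, and the proteases, inhibitors and protease receptor that govern how the HGF protein is activated. They are 8 of the 50464 gene symbols in a table of read counts and FPKM (read counts scaled to gene length and to the library's total). The set was chosen by the measured difference of HGF, which was already known to be among the lowest ratios of these libraries, together with 7 genes taken for their known roles. The values of HGF below are therefore a description. KASUMI-1 is an established line of human leukaemic myeloblasts with the RUNX1-RUNX1T1 fusion. Its cells received either the pccl lentivirus, which the labels do not call a control but which serves as one here, or the USP6 lentivirus, named after a ubiquitin-specific protease. Both groups share the cell line and a lentiviral infection, and the time after infection and the promoter of the construct are not given in the sources used here. Each group held 1 library, so differences could not be checked against replicates or tested. The libraries are called pccl and USP6 after their virus, and paired values give pccl first.

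HGF is secreted as an inactive single chain that binds heparan sulphate, and cleavage turns it into the form that activates the receptor tyrosine kinase MET. The proteases known to make this cut include the HGF activator HGFAC, the membrane protease matriptase, encoded by ST14, and the urokinase plasminogen activator, encoded by PLAU. The Kunitz-type inhibitors encoded by SPINT1 and SPINT2 block HGFAC and matriptase, and PLAUR encodes the receptor that holds urokinase at the cell surface. HGF is best known as a product of stromal cells that acts on epithelial cells, and it is also made by some myeloid leukaemia cells.

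The promoter windows of the ligand, the receptor and PLAU are shown because they differ in base composition. They come from RefSeq (GRCh38.p14), cover 250 bases before to 50 bases after a transcript start, and run 5′ to 3′ on the strand of the gene. Of the 8 members, 6 matched an entry, and SPINT2 and ST14 had none. Capitals mark the GC box GGGCGG on either strand. No binding or chromatin was measured, so the letters describe the reference and not these cells.
HGF, chr7:81769998-81770297, minus strand: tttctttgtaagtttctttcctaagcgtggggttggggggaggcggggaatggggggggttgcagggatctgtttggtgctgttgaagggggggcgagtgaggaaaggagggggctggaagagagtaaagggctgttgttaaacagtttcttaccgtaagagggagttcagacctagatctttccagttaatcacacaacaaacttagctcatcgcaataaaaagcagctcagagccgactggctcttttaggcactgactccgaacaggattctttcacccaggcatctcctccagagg
MET, chr7:116671946-116672245, plus strand: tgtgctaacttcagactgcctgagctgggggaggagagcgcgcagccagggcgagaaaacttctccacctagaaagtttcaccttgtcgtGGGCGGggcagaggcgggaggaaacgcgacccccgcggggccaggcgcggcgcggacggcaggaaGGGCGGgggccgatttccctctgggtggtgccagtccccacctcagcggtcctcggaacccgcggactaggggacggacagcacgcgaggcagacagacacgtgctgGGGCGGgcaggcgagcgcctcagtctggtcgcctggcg
PLAU, chr10:73910882-73911181, plus strand, the downstream start: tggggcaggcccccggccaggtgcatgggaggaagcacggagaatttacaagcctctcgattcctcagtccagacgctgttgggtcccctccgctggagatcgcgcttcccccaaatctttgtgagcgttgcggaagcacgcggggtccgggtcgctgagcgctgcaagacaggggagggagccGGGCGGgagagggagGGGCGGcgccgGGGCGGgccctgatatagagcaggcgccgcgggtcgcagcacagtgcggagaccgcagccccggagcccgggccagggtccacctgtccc

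The HGF window had a GC content of 51.0%, against a median of 58.7% over 35116 windows, and held 7 CpG dinucleotides. The MET window had 69.3% and 30 CpG, and the downstream PLAU window 70.0% and 28 CpG. The other PLAU window, at chr10:73910360-73910659, had 48.7% and 5 CpG. GC boxes numbered 3 in the MET window, 3 in the downstream PLAU window and 0 in the HGF window, and 45.0% of all windows held at least 1. The RUNX core TGTGGT was in 0 of the 8 member windows, on either strand, and in 13.1% of all windows. The TATA box TATAAA was also in 0 of them (11.5% of all windows). The AP-1 motif TGANTCA was in the PLAUR window and in 1 SPINT1 window (7.71% of all windows).

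The libraries held 12306442 counts (pccl) and 12518795 counts (USP6) over 17858 and 18119 symbols with a count. The mitochondrial genome took 49.9% and 45.6% of them. The USP6 gene had 8 and 70 counts, or 0.0396 and 0.340 FPKM, and whether reads of the construct are among them is not known. Of 10 markers of KASUMI-1 and myeloid progenitors, 9 reached 1 FPKM. KIT (99.3 and 39.99 FPKM) and CD34 (12.6 and 4.19) were lower with USP6 by a log2 ratio past -1, and MPO (27.4 and 121.8) and LYL1 (89.2 and 273.5) higher by one past 1. Whether these markers bear on the values of the members was not tested. Fibroblast markers were near absent, with 0 of 10 at 1 FPKM, 6 without a count and a sum of 0.129 and 0.0485 FPKM. Endothelial markers summed to 0.00899 and 0.185 FPKM, with 5 of 6 at 0, and macrophage markers to 1.33 and 1.27 FPKM, with 3 of 8 at 0. Of 10 epithelial markers only EPCAM reached 1 FPKM, with 17.3 and 8.77 FPKM, and CDH1, KRT5, KRT18, KRT19 and CLDN4 had 0 counts in both libraries. All intervals here cover counting error only, and reads copied by PCR are not independent molecules.

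HGF, the ligand, had 7161 counts with pccl and 320 with USP6. Its level was 50.2 FPKM (95% counting interval 49.1 to 51.4) and 2.21 FPKM (1.97 to 2.46). The pccl library was thus high and the USP6 library low, 22.8-fold lower (20.3 to 25.5), and the counting intervals did not overlap. HGF took 0.0582% of all counts in the pccl library (0.0568 to 0.0596, Clopper-Pearson) and 0.00256% in the USP6 library (0.00228 to 0.00285). By level it ranked 329 of the 10153 expressed genes (those reaching 1 FPKM in either library), and 5961 in the USP6 library. In bulk RNA, fewer cells that make a message and less of it per cell cannot be told apart. HGF (ENSG00000019991, chromosome 7 from 81699006 to 81770438, minus strand) overlaps no other gene of the table. Short forms of HGF that lack the protease-like part are known, and counts per gene do not separate them from the full message.

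MET, the receptor, had few counts in both libraries. It had 18 counts (0.141 FPKM, 0.0838 to 0.224) with pccl and 15 counts (0.116 FPKM, 0.0648 to 0.191) with USP6. These levels overlapped, with a USP6 to pccl ratio of 0.819 (0.384 to 1.72). No difference was seen beyond counting error, and the counts allow any ratio within those bounds. MET (ENSG00000105976) lies on chromosome 7 from 116672390 to 116798386.

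With the deposited lengths, HGF exceeded MET in both libraries, by 355-fold (225 to 599) with pccl and by 19.0-fold (11.4 to 34.4) with USP6. The ratio of ligand to receptor was 18.6-fold smaller in the USP6 library (8.65 to 39.5). The sum of the other 7 members was 613 counts with pccl and 876 with USP6. HGF made up 92.1% and 26.8% of all member counts.

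**Figure D1:**
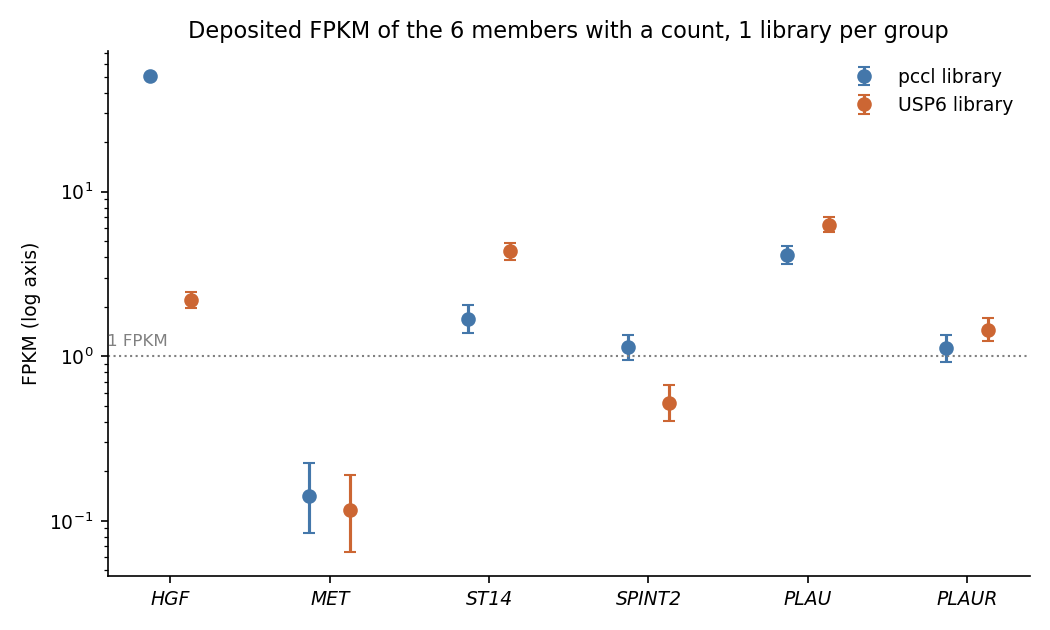
Deposited FPKM (vertical log axis) of the 6 members with a count, blue for the pccl library and orange for the USP6 library, with bars for the 95% Poisson counting interval and a dotted line at 1 FPKM. HGF stands at 50.2 and 2.21 FPKM, MET lies under 1 FPKM in both libraries, and HGFAC and SPINT1 are not drawn since they had 0 counts.

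Of the activating proteases, ST14 was higher in the USP6 library. This gene encodes matriptase, a membrane-anchored serine protease typical of epithelia and also found in some blood cells. It had 105 counts with pccl (1.69 FPKM, 1.38 to 2.04) and 275 with USP6 (4.35 FPKM, 3.85 to 4.89). The pccl library was low and the USP6 library high, 2.57-fold higher (2.05 to 3.26), with no overlap of the counting intervals. Its log2 ratio of FPKM + 1 was 0.99, against a median of 0.67 for expressed genes of like GC content, and 0.33 after centring on GC content. ST14 (ENSG00000149418) lies on chromosome 11 from 130159562 to 130210376 and overlaps no other listed gene.

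PLAU, urokinase, had 236 counts with pccl (4.14 FPKM, 3.63 to 4.70) and 366 with USP6 (6.31 FPKM, 5.68 to 6.99). It was 1.52-fold higher in the USP6 library (1.29 to 1.80). PLAU (ENSG00000122861, chromosome 10 from 73909177 to 73917497) overlaps C10orf55 on the opposite strand, which had 2 and 31 counts. Since the strandedness is not given, reads of the pair cannot be told apart where they overlap. PLAUR, the urokinase receptor gene (ENSG00000011422, chromosome 19 from 43646095 to 43670547), had 118 counts (1.12 FPKM, 0.924 to 1.34) and 156 counts (1.45 FPKM, 1.23 to 1.70). Its level intervals overlapped, and its ratio of 1.30 (1.02 to 1.66) lay close to 1, with a sign that turned after centring on GC content. With the deposited lengths, PLAU exceeded PLAUR by 3.70-fold (2.96 to 4.66) and 4.35-fold (3.59 to 5.28), and with the longest transcript by 1.21-fold (0.967 to 1.52) and 1.42-fold (1.18 to 1.73). This ratio differed between the libraries by a factor of 1.17 (0.868 to 1.58).

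HGFAC, the circulating HGF activator made mainly by the liver, had 0 counts in both libraries. A count of 0 is read here as up to 3 counts, which is 0.244 and 0.240 CPM (counts scaled to the library's total). This is a fixed limit, below the 3.69 counts of the exact Poisson interval. On its longest annotated transcript of 2159 bases that limit is 0.113 and 0.111 FPKM. HGFAC (ENSG00000109758) is listed on chromosome 4 from 3441887 to 3449495.

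Of the Kunitz-type inhibitors, SPINT2 was counted and SPINT1 was not. SPINT2 (ENSG00000167642, chromosome 19 from 38244035 to 38292614) had 136 counts with pccl (1.13 FPKM, 0.948 to 1.34) and 64 with USP6 (0.523 FPKM, 0.403 to 0.668). It was 2.16-fold lower in the USP6 library (1.59 to 2.96), without overlap of the counting intervals. It overlaps PPP1R14A, with 0 counts in both libraries, and AC011479.1, with 0 and 2 counts. SPINT1 (ENSG00000166145, chromosome 15 from 40844018 to 40858207) had 0 counts in both libraries, and on its longest transcript of 3056 bases 3 counts would be 0.0798 and 0.0784 FPKM.

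The protease and its inhibitor thus stood in different proportions in the libraries. With the deposited lengths, the ratio of ST14 to SPINT2 was 1.49 (1.15 to 1.94) with pccl and 8.31 (6.31 to 11.1) with USP6. It was 5.57-fold larger in the USP6 library (3.77 to 8.23), a value that does not depend on gene length. The ratio of PLAU to SPINT2 was 3.30-fold larger (2.32 to 4.70).

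Read against all genes, 1 of the 5 members with at least 1 FPKM was called lower and 0 were called higher. A call means a log2 ratio of FPKM + 1 at or past 1 or -1. Over the 10153 expressed genes, 11.4% were called lower, 13.7% higher and 25.1% in either direction. Since the lower member is the one that the set was chosen on, nothing is read from this count. On this scale the log2 ratio was -4.00 for HGF, the third lowest of all expressed genes, 0.99 for ST14, 0.51 for PLAU, 0.21 for PLAUR and -0.48 for SPINT2. ST14 lay just short of the limit of 1 and passed it with pseudocounts of 0.1 and 0.5. The median of these 5 was 0.21, and that of all expressed genes 0.06. By counting error alone, the interval of the plain ratio lay above 1 for 3 members (ST14, PLAU and PLAUR), below 1 for 2 (HGF and SPINT2) and across 1 for MET. The same was not counted over all expressed genes, so nothing about the set is read from these numbers.

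**Figure D2:**
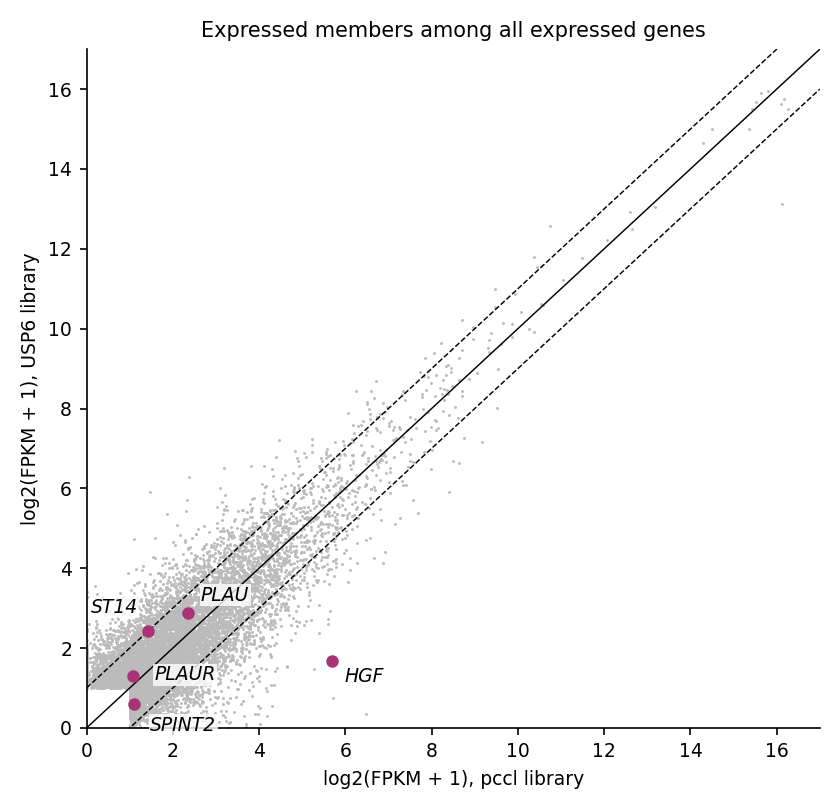
Log2(FPKM + 1) in the pccl library (horizontal) and the USP6 library (vertical) of the 10153 expressed genes in grey, with the 5 expressed members in purple, a solid line at equality and dashed lines at log2 ratios of 1 and -1. HGF lies far below the lower dashed line at a log2 ratio of -4.00, and ST14 lies at the upper dashed line at 0.99.

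The order of the members within a library depended on the gene length used. The deposited FPKM imply 1 length per gene, and for 5 of the 6 members with a count it equals, within 1 base, the sum of all distinct exons of all annotated transcripts, so that bases shared by several exons are counted more than once. HGF was the exception, with 11588 bases implied against 14164 in GENCODE release 29, where its locus also differs slightly. Across 19834 identifiers, 83.4% matched this sum within 1 base, and 27.6% matched the merged exons. Implied lengths of the members were 1.43 to 5.33 times that of the longest transcript. The largest factor was that of PLAUR, with 8586 bases implied, 4457 in merged exons and 1610 in its longest transcript. Plain ratios between the libraries do not depend on these lengths, but levels set against each other do. The log2 ratios of FPKM + 1 also depend on them. With the longest transcript, HGF went from -4.00 to -4.22 and ST14 from 0.99 to 1.08, which is past the limit, and with merged exons ST14 was at 1.03.

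In the pccl library the deposited order was HGF, PLAU, ST14, SPINT2, PLAUR and MET. SPINT2 and PLAUR did not differ beyond counting error (ratio 1.01, 0.785 to 1.31), and the other neighbours did. With the longest transcript the order was HGF (97.2), PLAU (7.21), PLAUR (5.96), SPINT2 (2.90), ST14 (2.41) and MET (0.220), in FPKM recomputed with that length. PLAU and PLAUR then did not differ beyond counting error (1.21, 0.967 to 1.52), nor did SPINT2 and ST14 (1.20, 0.927 to 1.57). In this library HGF was the highest and MET the lowest of the counted members with each of the 3 lengths.

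In the USP6 library the deposited order was PLAU, ST14, HGF, PLAUR, SPINT2 and MET, and every neighbour differed beyond counting error. With the longest transcript it was PLAU (10.999), PLAUR (7.74), ST14 (6.21), HGF (4.27), SPINT2 (1.34) and MET (0.181). With merged exons PLAUR and HGF did not differ beyond counting error (1.07, 0.881 to 1.30). With each length, HGF was below PLAU and ST14 in this library, whereas it was 12.1-fold above PLAU in the pccl library as deposited (10.7 to 13.9). The ratio of ST14 to SPINT2 in the pccl library was 1.49 as deposited, but 0.831 (0.638 to 1.08) with the longest transcript.

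**Figure D3:**
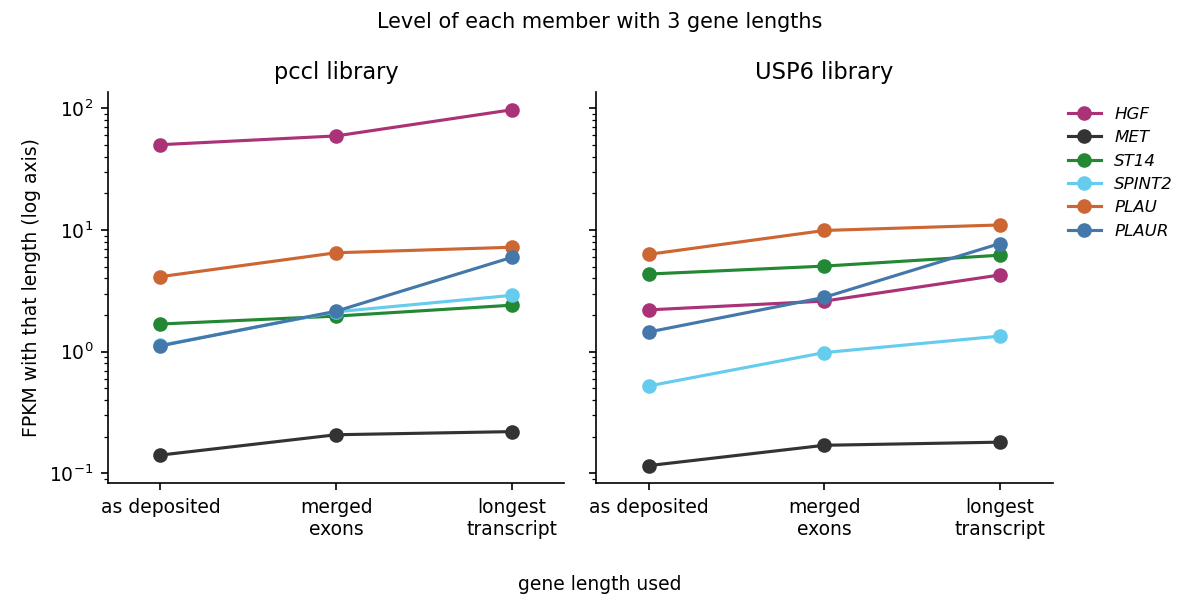
Level in FPKM (vertical log axis) of the 6 counted members with the length implied by the deposited FPKM, the merged exons and the longest transcript, in the pccl library (left) and the USP6 library (right). The lines of PLAUR cross those of other members, from 1.12 to 5.96 in the pccl library, whereas MET stays lowest in both libraries.

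Ratios moved with the GC content of transcripts across the table, and the members differ in it. Over 10 GC classes of expressed genes, the median log2 ratio was -0.37 for the lowest class and 0.74 for the highest. HGF, with 35.9% GC in its longest transcript, is in the lowest class, where 18.6% of genes were called lower. Among the 338 expressed genes within 1 percentage point of its GC content, HGF included, the median was -0.31, 53 were called lower and HGF had the lowest log2 ratio. HGF was chosen on its difference, so this rank is a description. Taken from a lowess trend with GC content, its log2 ratio was -3.70.

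ST14, with 62.8% GC, is in the highest class. Among the 434 expressed genes within 1 percentage point of its GC content the median was 0.67 and 30.2% were called higher, and ST14 ranked 302 from the lowest. Centred on the trend, its log2 ratio was 0.33 in place of 0.99. PLAU (54.0% GC) went from 0.51 to 0.31, and SPINT2 (55.6%) from -0.48 to -0.77. PLAUR (55.7%) went from 0.21 to -0.08, so that its sign turned. The part of GC content in these differences was not tested.

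**Figure D4:**
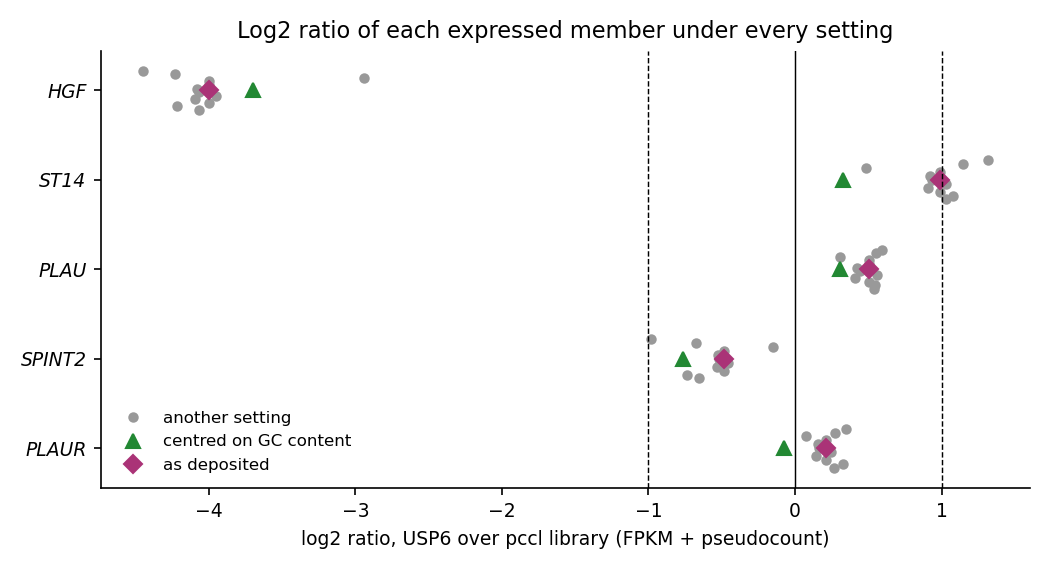
Log2 ratio of the USP6 over the pccl library (horizontal) of the 5 expressed members, with purple diamonds for the values as deposited, green triangles after centring on GC content and grey points for each other setting that gave a value, and dashed lines at 1 and -1. HGF stays below -1 at every setting, ST14 lies on both sides of 1, and PLAUR crosses 0 with GC centring.

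The protein-coding genes whose levels in both libraries were nearest to those of HGF were UBE2K, CA2, CHRAC1, TMED2 and HNRNPA3. Symbols that begin like clone identifiers were left out. The measure was the Euclidean distance in log2(FPKM + 1) over the 2 libraries, which holds only a level and a difference. UBE2K, a ubiquitin-conjugating enzyme, had 37.7 and 1.77 FPKM at a distance of 0.46. CA2, a carbonic anhydrase, had 40.8 and 4.23 FPKM at a distance of 0.77. The other genes lay between 1.03 and 1.05 from HGF. The nearest gene with a count on the left of HGF, 1479.6 kb away, was the G protein gene GNAI1, with 92 and 95 counts and a ratio of 1.02 (0.754 to 1.37). On its right, AC004006.1 had 1 and 0 counts. Beside MET, CAV1 had 3 and 2 counts, and CAPZA2, an actin-capping subunit 12.7 kb away, had 269 and 82 counts, 3.34-fold lower.

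Of 6 relatives of the ligand and the receptor, 3 reached 1 FPKM, 2 were called higher and 0 lower, with a median of 1.31. All 3 reached it only in the USP6 library, so the filter favours higher values and nothing is read from this count or median. Over all expressed genes 13.7% were called higher and 11.4% lower, the background for the counts of every list. MST1R, the receptor most closely related to MET, had 0 counts in both libraries. The plexin genes PLXNB1 and PLXNB2, semaphorin receptors with extracellular parts related to that of MET, were the higher members. PLXNB1 had 41 and 623 counts (0.199 and 2.97 FPKM), 14.9-fold higher (10.9 to 21.0). PLXNB2 had 88 and 441 counts (0.599 and 2.95 FPKM), 4.93-fold higher (3.91 to 6.27). MST1, the ligand of MST1R, had 0.177 and 1.005 FPKM.

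Of the other proteases of this pathway, 0 of 13 reached 1 FPKM and 8 had 0 counts in both libraries, among them TMPRSS2, KLKB1 and F2. A value under 1 FPKM is not absence, and PLAT had 2 and 69 counts (0.0155 and 0.527 FPKM). Of 14 further Kunitz and serpin inhibitors, 2 reached 1 FPKM and 0 were called. APP, whose longer forms carry a Kunitz domain, had 13.0 and 6.47 FPKM, 2.01-fold lower (1.86 to 2.19), and SERPINE2, protease nexin-1, had 0.244 and 1.001 FPKM, 4.10-fold higher (2.83 to 6.07). Plasminogen itself, PLG, the main substrate of urokinase, had 0 counts in both libraries.

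Among partners of plasminogen and of the urokinase receptor, 10 of 17 reached 1 FPKM, 2 were called higher and 0 lower, and the median was -0.22. The 2 of 10 called higher are near the 13.7% of all genes. ITGAM, an integrin chain that pairs with ITGB2 and binds the urokinase receptor, had 10 and 285 counts (0.114 and 3.20 FPKM), 28.0-fold higher (15.0 to 59.1). It reached 1 FPKM only in the USP6 library, so the filter kept it through its higher value, and nothing is read from this count. PLGRKT, VLDLR and ITGAV reached 1 FPKM only in the pccl library, and none of them was called. ITGB2, the partner chain of ITGAM, had 1.64 and 4.12 FPKM. MRC2, a collagen receptor that associates with the urokinase receptor, had 4.63 and 12.1 FPKM, 2.60-fold higher (2.38 to 2.86).

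Of 13 co-receptors of MET, 5 reached 1 FPKM, 1 was called higher and 0 lower, and the median was 0.94. NRP1 (0.776 and 2.40 FPKM) and ITGB4 (0.670 and 2.20) reached 1 FPKM only in the USP6 library, which bears on that median. ITGA6, with 0.837 and 0.0964 FPKM, was left out by the filter. In so short a list, 1 call is near the background of 13.7%. The higher gene was ICAM1, an adhesion receptor, with 1.23 and 3.56 FPKM. CD44, whose variant forms present HGF to MET, was the most abundant, with 19.99 and 13.6 FPKM, 1.47-fold lower (1.41 to 1.53). Of 20 heparan sulphate genes, 10 reached 1 FPKM, 1 was called higher and 1 lower, with a median of 0.23. Both counts are near the background of 13.7% and 11.4%. The sulphotransferase gene HS6ST1 had 1.75 and 5.55 FPKM, 3.17-fold higher (2.58 to 3.91), and HS2ST1, which sulphates another position, had 7.88 and 2.28 FPKM, 3.46-fold lower (2.99 to 4.03).

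Genes that carry the signal of MET inside the cell mostly reached 1 FPKM, whereas MET itself was counted in both libraries but stayed under 1 FPKM. Of 26 adaptors and effectors, 20 reached 1 FPKM in at least 1 library, 2 were called higher and 5 lower, with a median of -0.27. These genes serve many receptors of these cells, KIT included. The adaptor genes GRB2, with 3.05 and 12.01 FPKM, and GAB2, with 20 and 295 counts, were 3.94-fold (3.44 to 4.53) and 14.5-fold higher (9.22 to 24.1). The phosphatase gene PTPN11 had 53.9 and 16.6 FPKM, 3.24-fold lower (3.07 to 3.42). The adaptor gene CRK was 6.56-fold lower (4.35 to 10.2). The GTPase gene NRAS was 4.67-fold lower (4.14 to 5.29), and HRAS, with 65.8% GC, had 6.83 and 12.8 FPKM. The share called lower, 5 of 20, stands against 11.4% over all genes, for a list chosen with earlier results known. CRK (2.19 and 0.334 FPKM) reached 1 FPKM only in the pccl library, and GAB2 (0.198 and 2.88 FPKM) only in the USP6 library. The filter thus kept each through the library where it was high, and nothing is read from these counts.

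Among 19 negative regulators and shedding proteases of MET, 12 reached 1 FPKM, 1 was called higher and 0 lower, with a median of -0.15. That is no more than the background of 13.7% higher. The higher gene was FURIN, known as a convertase that cleaves the MET precursor in its maturation and so neither a negative regulator nor a shedding protease, with 9.56 and 27.3 FPKM, 2.85-fold higher (2.61 to 3.12). Of 16 feedback and immediate target genes of the MAPK pathway, 8 reached 1 FPKM, 1 was called higher and 0 lower, with a median of -0.26. This count too is near 13.7%. The higher gene was the ERK phosphatase gene DUSP6, with 13.1 and 27.5 FPKM, 2.10-fold higher (1.96 to 2.24) and at a log2 ratio of 1.01, close to the limit.

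Base composition moved with these list genes too, and its part was not tested. Of the genes called higher, 5 fell under the limit once centred on the GC trend. Their log2 ratios were then 0.63 for PLXNB2, 0.51 for MRC2, 0.68 for ICAM1, 0.67 for HS6ST1 and 0.81 for FURIN. PLXNB1 (1.09), ITGAM (1.70), GRB2 (1.56), GAB2 (1.47) and DUSP6 (1.16) stayed above it. The 6 genes called lower stayed past -1, from -1.07 for CRK to -1.68 for NRAS.

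**Figure D5:**
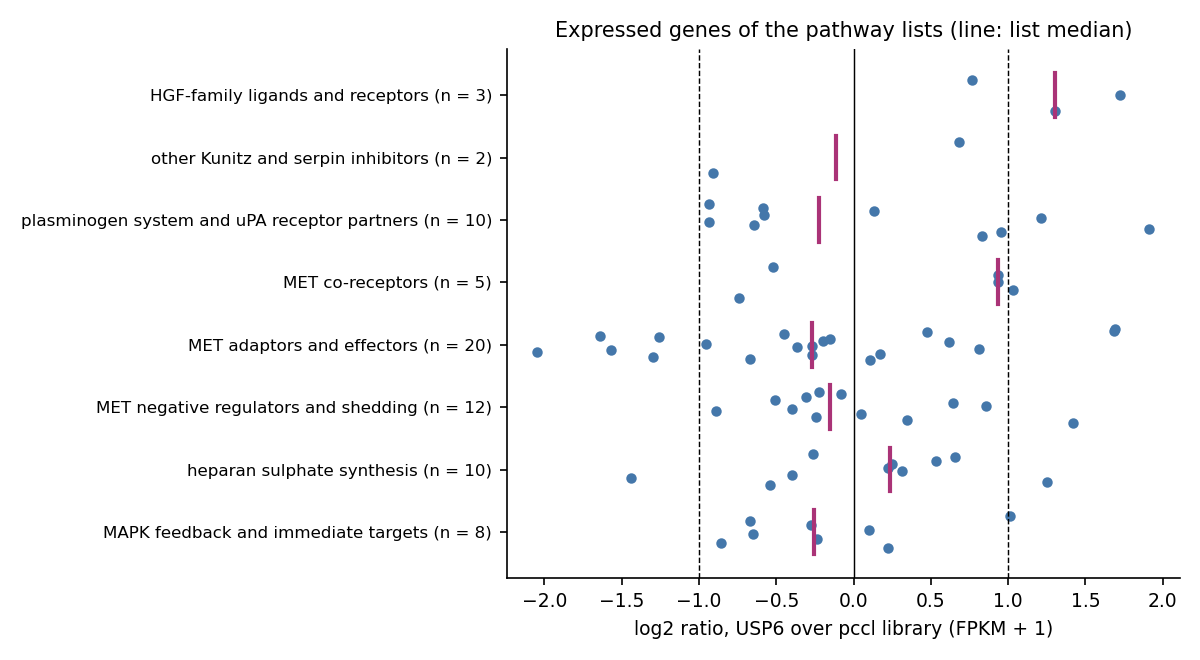
Log2 ratio of FPKM + 1, USP6 over pccl library (horizontal), of every expressed gene on the 8 pathway lists that had any, 1 point per gene, with a purple line at each list's median and dashed lines at 1 and -1. The adaptors and effectors of MET hold the 5 points below -1 besides HS2ST1, and the lists of co-receptors and of HGF relatives have medians of 0.94 and 1.31. Those medians bear the mark of the filter. All drawn HGF relatives, and NRP1 and ITGB4 among the co-receptors, reached 1 FPKM only in the USP6 library.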

How the data were processed

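RNA of KASUMI-1 cells was sequenced after infection with either lentivirus (pccl, USP6), 1 library per group. HISAT2 2.0.4, StringTie 1.3.3b and edgeR stand in the submitters' processing notes, which give no roles. Genome build, annotation and strandedness are not given in the sources used here. Counts per gene were deposited as whole numbers, and the authors' FPKM equal the count divided by an implied gene length and by the column's total count. Implied lengths were compared with gene models of GENCODE release 29, which also gave the GC content of each gene's longest transcript.

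FPKM of identifiers with 1 symbol were summed. A gene was called higher or lower where log2((USP6 + 1)/(pccl + 1)) of FPKM reached 1 or -1, among expressed genes, those reaching 1 FPKM in either library. Alternatives to these choices, 12 planned and 2 chosen after the data were seen, are given at the end. Those 2 recomputed FPKM with other gene lengths. A fit of both groups would have 0 residual degrees of freedom, and no test was made. Ratios are without pseudocount, with exact conditional binomial (Clopper-Pearson) intervals at 95%, and levels have exact Poisson intervals. A count of 0 was read as up to 3 counts, a fixed limit and not the upper end of the Poisson interval. From each pathway list, expressed genes at or past the limit were named, otherwise the pair with the highest mean FPKM. MST1, MST1R, PLG, ITGB2, CD44 and HRAS were named outside that rule, after their values were seen. So were TMPRSS2, KLKB1, F2, PLAT, NRP1, ITGB4, ITGA6, PLGRKT, VLDLR and ITGAV, and the genes under the closing observations. Some genes that met the rule are not reported here. The 5 genes most like HGF were the protein-coding genes nearest to it in log2(FPKM + 1) of both libraries. Symbols that begin like clone identifiers were left out by a letter pattern, which can also drop named genes. The members and lists were chosen with earlier results of these data known. The steps were tested on simulated data. The trimmed mean of M values came from edgeR 4.0.16 in R 4.3.3. The other steps ran in Python 3.11.15 with SciPy 1.17.1, pandas 2.3.3, NumPy 2.4.6, matplotlib 3.10.9 and statsmodels 0.14.6.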

Additional observations from a re-analysis of the deposited data

How the results depend on the processing

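Each alternative changed 1 choice. The log2 ratio of HGF was between -4.45 and -2.94 over the 14 settings that gave it, the main one included, and called lower at each. It was -4.45, -4.23 and -2.94 with pseudocounts of 0.1, 0.5 and 5, -3.70 centred on GC content and -4.22 with the longest transcript as gene length. The number of members called lower was 1 at each setting. The number called higher was 1 (ST14) with pseudocounts of 0.1 and 0.5, the upper quartile, a limit of 1.5-fold, and both other gene lengths, and 0 at the rest. Over all genes, 2295 were higher and 1993 lower with a pseudocount of 0.1, 364 and 301 with 5, 808 and 682 at 5 FPKM, which leaves fewer genes, and 2808 and 2465 with the 1.5-fold limit. The balance of higher and lower genes (1396 and 1156) turned to 1197 and 1344 with the trimmed mean, 1232 and 1306 with the median at 0, 1163 and 1372 outside the mitochondrial genome and 978 and 995 centred on GC content. The trimmed mean and the count outside the mitochondrial genome moved every log2 ratio without pseudocount by -0.10 and -0.12. PLAUR turned from 0.21 to -0.08 with GC centring, SPINT2 stayed below 0, and ST14 and PLAU above 0, at each setting that gave them. MET is left out by the filter, and its log2 ratio without it was -0.03. No paired analysis was possible because each group has 1 library. With 18 and 15 counts, MET allows ratios from 0.384 to 1.72.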

Other observations

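Some genes of the pathway lists lay under 1 FPKM in both libraries, so no call was made, while their counts stood apart. They were chosen after their values were seen. PLAT, the tissue-type plasminogen activator gene, had 2 counts with pccl and 69 with USP6, and the ratio of 33.9 had counting limits of 9.04 and 286. PLXNB3, a further plexin gene, had 5 and 64 counts, 12.6-fold higher (5.12 to 40.1). ITGA6, the integrin chain that pairs with ITGB4, had 111 and 13 counts, 8.69-fold lower (4.88 to 16.8), whereas ITGB4 had 83 and 277 counts. HS3ST3B1, a heparan sulphate sulphotransferase gene, had 36 and 2 counts, and the immediate early gene FOS had 57 and 4. GAB1, the adaptor that binds MET most directly, had 160 and 43 counts, 3.79-fold lower (2.69 to 5.43), while its relative GAB2 had 20 and 295.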
